A study of Homo sapiens with 21 samples.

Results

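MAK683, a compound known to bind EED, was set against valemetostat, a known inhibitor of EZH1 and EZH2, in xenograft tumours of the human bladder carcinoma line HT1376. The libraries were chosen by their treatment label alone, 3 with MAK683 and 3 with valemetostat, together 6 of the 21 libraries of the series, and 3 vehicle libraries gave the untreated level. HT1376 cells mixed with Matrigel had been placed under the skin of the right flank of female CB17 SCID mice, which lack functional T and B cells and were 6 to 8 weeks old at the start. Both compounds were given by mouth once a day at 75 mg/kg, starting 11 to 15 days after inoculation, and vehicle tumours are listed with the same sampling. On day 15 the tumours were collected 1 hour after dosing and snap-frozen, and total RNA was sequenced. Whether the 3 libraries of a group stem from different animals is not stated in the labels, and the p-values therefore describe library-to-library spread, part of which may be technical.

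EED, EZH2 or EZH1, and SUZ12 form the core of Polycomb repressive complex 2 (PRC2), which methylates histone H3 and so helps to keep genes silent. EZH2 and EZH1 are the alternative catalytic subunits, and EED reads the trimethyl mark and in doing so stimulates the enzyme. A compound that occupies the mark-reading pocket of EED and one that blocks the catalytic site of EZH1 and EZH2 therefore reach the same complex through different subunits. The study gave both at 1 matched dose and time, which allows a direct comparison of the tumours' RNA. Nothing in the data measures how much of either drug reached the tumour or how far the histone mark fell.

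The values are counts of reads per gene as the authors deposited them. Totals ran from 15890457 to 20590186 counts in the MAK683 libraries, from 17160480 to 21528194 with valemetostat and from 22371908 to 25059827 with vehicle. Levels are given as CPM, which are counts relative to the library's scaled total. In the smallest of these libraries a count of 0 allows a level of up to 0.189 CPM, the equivalent of 3 counts, and this limit covers counting error only. The 10 bladder epithelium markers, such as KRT5, KRT8 and EPCAM, were all tested, and they summed to 6997 to 9539 CPM with MAK683, 6184 to 8880 CPM with valemetostat and 8401 to 8657 CPM with vehicle. On the first principal component of log2 CPM over these 9 libraries, which held 59.1% of the variance, MAK683 libraries stood at -36.4 to -19.1, valemetostat libraries at -67.6 to -33.4 and vehicle libraries at 71.9 to 77.9. The ranges of the compounds overlapped there, and valemetostat library 3 lay farthest from vehicle.

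How many genes differed between the compounds depended on the processing. Of 21958 genes tested, 6 passed an adjusted p of 0.05 in the edgeR quasi-likelihood test with Benjamini-Hochberg adjustment (0.0273%). Of these, 4 were lower with MAK683 than with valemetostat (0.0182%), namely UBD, IDO1, OR2I1P and WARS1, and 2 were higher with MAK683 (0.00911%), namely KRT4 and RAPGEFL1. With no low-count filter 204 were higher and 155 lower, all 359 of them among the same 21958 genes, and with a skeletal muscle marker covariate 16 were higher and 12 lower. With RLE scaling the split was 1 higher and 4 lower. An unadjusted p under 0.05 was reached by 1574 genes (7.17%), 845 in the higher direction (3.85%) and 729 in the lower (3.32%).

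These counts changed when single libraries were left out. Each omission also made a group smaller, and the cause of the change was not tested. Without MAK683 library 1 they were 1 higher and 1 lower, while edgeR called 0 genes without MAK683 library 2 (2490 at an unadjusted p under 0.05) or without MAK683 library 3 (1014). Without valemetostat library 1 or valemetostat library 3 there were 0 higher and 1 lower, and that gene was UBD in each case. Without valemetostat library 2 there were 5 higher and 9 lower. The vehicle libraries share the fit's estimate of spread, and leaving out each of them, an alternative added after the data were seen, gave 2 and 5, 1 and 3, and 3 and 9. Fitted on the 6 libraries of the compounds alone, edgeR called 0 genes, with 1488 at an unadjusted p under 0.05, while DESeq2 on all 21 libraries called 27 higher and 40 lower and limma-voom called 2 and 3.

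A p that misses the threshold does not show that the compounds act alike, so the interval of each difference was examined as well. Each interval was taken for 1 gene at a time and is not adjusted for the number of genes tested. For 14951 genes (68.1%) the 95% interval of the log2 difference lay within a 2-fold change in either direction. For 15 genes it lay wholly beyond 2-fold, while the glmTreat test against a 1.5-fold change called 0 higher and 1 lower. Among the 16818 genes that averaged 1 CPM or more in either group, 14375 (85.5%) had an interval within 2-fold and 8 had one wholly beyond it. For the 5140 genes below 1 CPM in both groups, 576 intervals were that narrow. The median log2 difference over all genes was 0.01 and the quartiles were -0.16 and 0.19.

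**Figure D1:**
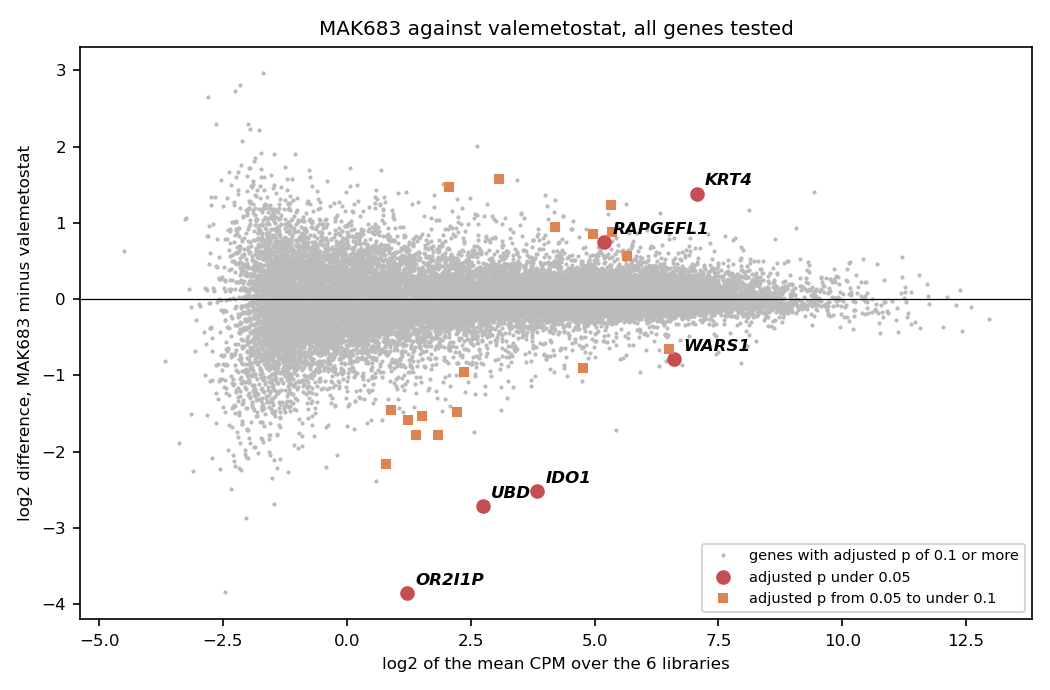
Each point is 1 of the 21958 genes tested, with the log2 of its mean CPM over the 6 libraries on the horizontal axis and the log2 difference, MAK683 minus valemetostat, on the vertical axis. Red circles are the 6 genes with an edgeR adjusted p under 0.05 and orange squares the 17 with an adjusted p from 0.05 to under 0.1; OR2I1P, UBD and IDO1 lie lowest among the red points and KRT4 highest.

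UBD encodes FAT10, a ubiquitin-like modifier known to be induced by interferon gamma and tumour necrosis factor. It stood at 2.47, 1.47 and 1.39 CPM in the MAK683 libraries, against 10.4, 5.58 and 18.8 CPM with valemetostat and 0.0453, 0.168 and 0.140 CPM with vehicle. Every MAK683 library lay below every valemetostat library and above every vehicle library. The log2 difference between the compounds was -2.71 ± 0.37 (SE), with a 95% interval from -3.48 to -1.94 and an edgeR adjusted p of 0.00785. Against vehicle, UBD rose with both, by 3.82 ± 0.60 with MAK683 and 6.54 ± 0.52 with valemetostat (log2, edgeR adjusted p 0.000117 and 2.54e-08). Vehicle libraries held 8 UBD counts between them, so the size of both rises rests on few reads.

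IDO1 encodes the first enzyme of tryptophan breakdown along the kynurenine pathway. Its levels were 5.32, 4.45 and 3.00 CPM with MAK683, 21.3, 11.1 and 40.8 CPM with valemetostat, and 0.634, 0.587 and 0.466 CPM with vehicle, again without overlap between any of these groups. The log2 difference between the compounds was -2.52 ± 0.38 (edgeR adjusted p 0.0223). It rose against vehicle by 2.90 ± 0.50 with MAK683 and by 5.42 ± 0.48 with valemetostat on the log2 scale. In hg38 it spans 39902275 to 39928444 on the plus strand of chromosome 8.

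WARS1, the cytoplasmic tryptophanyl-tRNA synthetase and another gene known to respond to interferon gamma, differed far less in size. It had 71.5, 73.6 and 70.5 CPM with MAK683, 123.7, 100.7 and 147.8 CPM with valemetostat, and 64.9, 61.6 and 58.7 CPM with vehicle. That is a log2 difference of -0.79 ± 0.13 between the compounds (edgeR adjusted p 0.0269). WARS1 rose against vehicle with valemetostat (log2 1.01 ± 0.13) and had a log2 difference of 0.22 ± 0.13 from vehicle with MAK683 that did not pass (adjusted p 0.311).

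OR2I1P is named as an olfactory receptor pseudogene, while GENCODE 29 types it as protein-coding. It had 0.309, 0.391 and 0.166 CPM with MAK683, from 16 counts in all, and 2.99, 1.73 and 8.27 CPM with valemetostat, from 249 counts. Vehicle libraries held 4 counts between them, so the level there is at the limit of what the depth can show. The log2 difference between the compounds was -3.85 ± 0.62, with an interval from -5.15 to -2.56 (edgeR adjusted p 0.0227). OR2I1P lies next to UBD on chromosome 6: in the hg38 coordinates of the files OR2I1P spans 29553219 to 29554166 on the plus strand and UBD 29555515 to 29559925 on the minus strand, 1348 bases apart. The GENCODE 29 model of OR2I1P is longer (29550407 to 29557721) and overlaps UBD on the opposite strand. The strand setting of the counting is not given in the sources used here, so the reads of the pair cannot be told apart with certainty. UBD also overlaps GABBR1, a receptor subunit gene on its own strand, which averaged 56.5 CPM with MAK683 and 59.1 CPM with valemetostat (log2 difference -0.07, interval -0.46 to 0.33). WARS1 overlaps 4 genes on the opposite strand, among them WDR25 at 3.52 CPM with MAK683 and 4.20 CPM with valemetostat.

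KRT4, a type II keratin of stratified epithelia that do not cornify, had 152, 219 and 209 CPM with MAK683, 86.1, 84.9 and 51.6 CPM with valemetostat, and 261, 279.6 and 201 CPM with vehicle. All MAK683 libraries lay above all valemetostat libraries, and the MAK683 and vehicle ranges overlapped. The log2 difference was 1.38 ± 0.22 between the compounds (interval 0.93 to 1.84, edgeR adjusted p 0.0223). Against vehicle KRT4 fell by 1.74 ± 0.22 on the log2 scale with valemetostat, while with MAK683 the difference was -0.35 ± 0.21 and did not pass (adjusted p 0.312). RAPGEFL1, a relative of the exchange factors for Rap GTPases, had 40.9, 49.3 and 47.9 CPM with MAK683, against 27.0, 31.7 and 23.4 CPM with valemetostat and 64.3, 67.6 and 69.8 CPM with vehicle. The 3 groups did not overlap. The compounds differed by 0.75 ± 0.13 on the log2 scale (edgeR adjusted p 0.0269), and RAPGEFL1 fell against vehicle with both, by 0.547 ± 0.125 with MAK683 and 1.296 ± 0.127 with valemetostat.

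**Figure D2:**
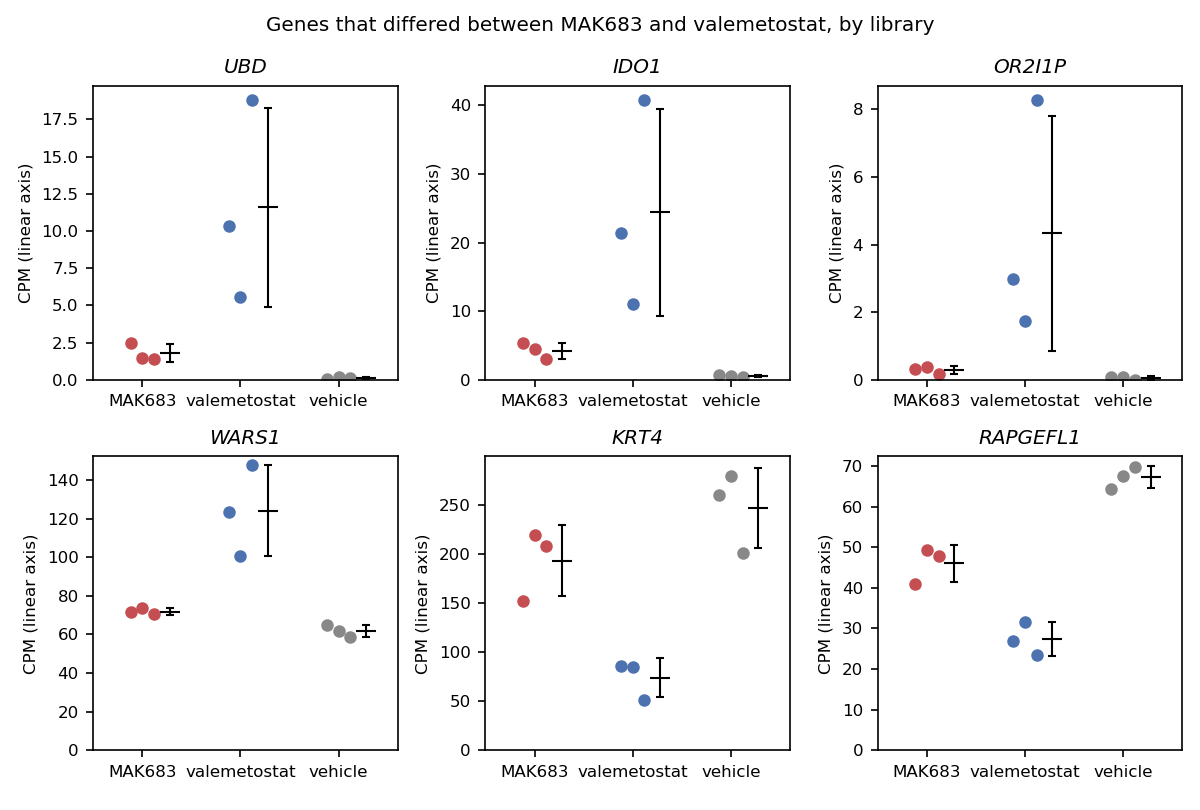
CPM on a linear axis that starts at 0 for the 6 genes that differed between the compounds, 1 point per library, with MAK683 left, valemetostat in the middle and vehicle right; the bar beside each group is its mean ± SD (n = 3). The MAK683 and valemetostat points do not overlap in any panel, and the MAK683 mean lies between the other 2 means in all 6.

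In all 6 genes the MAK683 mean lay between the vehicle and the valemetostat mean, an order that was not counted over all genes. Besides the pair on chromosome 6, KRT4 spans 52806549 to 52814551 on the minus strand of chromosome 12. WARS1 spans 100333788 to 100376805 on the minus strand of chromosome 14 and RAPGEFL1 spans 40177010 to 40195656 on the plus strand of chromosome 17 (hg38, whole gene with exons, introns and UTRs). Of the same 6 genes, UBD and KRT4 are placed here among the other 4 compounds as a description. UBD averaged 24.4 ± 6.45 CPM with CPI-0209, 1.89 ± 0.859 with PF-06821497, 0.288 ± 0.0801 with tazemetostat and 0.190 ± 0.0303 with CPI-1205, beside 1.78 ± 0.605 with MAK683 and 11.6 ± 6.70 with valemetostat (SD, n = 3 each). For KRT4 the means were 40.7 ± 9.52 CPM with CPI-0209, 189.8 ± 34.0 with PF-06821497, 270.6 ± 20.1 with tazemetostat and 206 ± 49.9 with CPI-1205, beside 193 ± 36.1 with MAK683 and 74.2 ± 19.6 with valemetostat.

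RefSeq promoter windows, from 250 bases before to 50 after the annotated start, are shown for UBD and WARS1, which were lower with MAK683, and for KRT4, which was higher, so that their letters can be read beside the levels above; 4 of the 6 genes are in the RefSeq table. Each is given 5′ to 3′ on the gene's own strand of GRCh38.p14. Capitals mark the matches to the motifs searched on both strands: the gamma-activated site TTCNNNGAA, the interferon-stimulated response element (GAAA, any 2 bases, then GAAA) and the AP-1 element TGANTCA. The UBD window is chr6:29559683-29559982, the WARS1 windows are chr14:100376278-100376577 and chr14:100375298-100375597 for 2 annotated starts, and the KRT4 window is chr12:52814067-52814366, all on the minus strand.
UBD: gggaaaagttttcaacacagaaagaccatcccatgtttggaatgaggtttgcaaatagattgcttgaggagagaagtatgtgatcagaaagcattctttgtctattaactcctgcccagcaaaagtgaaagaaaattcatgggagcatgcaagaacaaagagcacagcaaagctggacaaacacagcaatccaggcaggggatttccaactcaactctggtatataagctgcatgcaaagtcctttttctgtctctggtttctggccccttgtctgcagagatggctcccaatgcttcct
WARS1, first start: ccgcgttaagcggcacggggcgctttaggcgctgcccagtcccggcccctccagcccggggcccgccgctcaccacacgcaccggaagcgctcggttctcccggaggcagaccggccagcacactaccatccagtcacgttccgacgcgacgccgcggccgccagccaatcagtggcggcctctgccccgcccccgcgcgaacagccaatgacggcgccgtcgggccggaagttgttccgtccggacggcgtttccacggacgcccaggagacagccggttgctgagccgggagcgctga
WARS1, second start: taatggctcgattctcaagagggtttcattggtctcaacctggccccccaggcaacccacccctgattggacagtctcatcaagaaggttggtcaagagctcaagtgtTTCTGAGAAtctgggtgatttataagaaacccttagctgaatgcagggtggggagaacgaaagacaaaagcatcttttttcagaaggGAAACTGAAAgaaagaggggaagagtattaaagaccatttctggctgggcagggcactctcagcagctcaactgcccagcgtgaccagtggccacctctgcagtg
KRT4: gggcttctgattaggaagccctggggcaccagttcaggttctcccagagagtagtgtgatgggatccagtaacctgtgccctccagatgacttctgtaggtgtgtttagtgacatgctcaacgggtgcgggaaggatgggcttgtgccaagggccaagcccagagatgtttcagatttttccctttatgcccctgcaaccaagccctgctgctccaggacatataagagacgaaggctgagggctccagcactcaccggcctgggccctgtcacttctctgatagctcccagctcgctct
The second WARS1 window held TTCTGAGAA beginning at base -142 from the start and GAAACTGAAA at base -55, and these do not overlap. None of the 3 motifs was found in the other windows shown or in that of RAPGEFL1 (chr17:40177220-40177519). Of 35116 promoters in the table, 7.66% held the first motif, 3.57% the second and 7.71% the third. A match is a description of these letters and was not tied to binding of any factor here.

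The subunits that the drugs bind did not separate the groups. EED had 48.5, 39.9 and 43.1 CPM with MAK683 and 45.2, 45.5 and 53.8 CPM with valemetostat, and the groups overlapped. The log2 difference was -0.14 with a 95% interval from -0.40 to 0.13. EZH2 averaged 90.3 ± 4.83 CPM with MAK683 and 89.8 ± 7.27 CPM with valemetostat, a log2 difference of 0.01 (interval -0.20 to 0.22). For EZH1 they were 39.1 ± 2.43 CPM with MAK683 and 39.9 ± 2.06 CPM with valemetostat (interval -0.26 to 0.20), and for SUZ12 they were 55.0 ± 11.7 CPM with MAK683 and 45.8 ± 8.27 CPM with valemetostat (interval -0.13 to 0.66). All 14 PRC2 subunits listed were tested, 0 differed by adjusted p and 1 by an unadjusted p under 0.05 (7.17% of all genes), and 13 had an interval within 2-fold (68.1% of all genes). The exception was EZHIP, known as an inhibitor of the complex, with 6.37, 5.82 and 5.49 CPM in MAK683 libraries and 12.9, 8.24 and 12.2 CPM in valemetostat libraries. Its groups did not overlap, its log2 difference was -0.92 (interval -1.46 to -0.38), and it did not pass (edgeR adjusted p 0.275). For RBBP4 and RBBP7, histone chaperones with the highest CPM of these subunits, the log2 differences were 0.06 (interval -0.14 to 0.25) and 0.03 (interval -0.19 to 0.26). All 22 PRC1 subunits also had an interval within 2-fold.

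Genes of MHC class II presentation, which display peptides to helper T cells, rose against vehicle with both compounds. They did not separate the compounds, and most of their intervals were wide. Of 15 members tested, 14 rose against vehicle with MAK683 (10.4% of all genes were higher) and 14 with valemetostat (15% of all genes), with median log2 differences of 4.10 and 4.64. Between the compounds 0 of 15 passed and 1 reached an unadjusted p under 0.05 (7.17% of all genes), although all 15 had a negative log2 difference, beside 51.8% of all genes with a positive one. The median was -0.45, and only 2 of the 15 intervals lay within 2-fold. Without valemetostat library 3 the median was 0.01.

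CD74, the invariant chain, had the highest CPM of the list. It had 380.0, 259 and 315 CPM with MAK683, 342, 264 and 615 CPM with valemetostat, and 18.0, 32.1 and 15.4 CPM with vehicle, so valemetostat library 3 alone stood above the MAK683 range. The log2 difference was -0.36 ± 0.38, with an interval from -1.17 to 0.45. HLA-DRA, the alpha chain of HLA-DR, had 94.6, 57.8 and 66.6 CPM with MAK683 and 79.2, 62.7 and 159 CPM with valemetostat, a log2 difference of -0.46 with an interval from -1.31 to 0.39. CIITA, which switches on the class II genes, had 37.5, 20.7 and 28.2 CPM with MAK683 and 29.3, 26.9 and 59.1 CPM with valemetostat (interval -0.97 to 0.14). HLA-DQA2 was the 1 member without overlap between the groups, as in 11.9% of all genes, and did not pass (edgeR adjusted p 0.16). It had 0.495, 0.147 and 0.166 CPM with MAK683, against 0.840, 0.790 and 2.04 CPM with valemetostat. In MAK683 libraries 2 and 3 the equivalent of 3 counts is 0.146 and 0.165 CPM, so these levels rest on very few reads. HLA genes share long stretches with their paralogs, and how the counting treated reads that match several of them is not given in the sources used here.

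**Figure D3:**
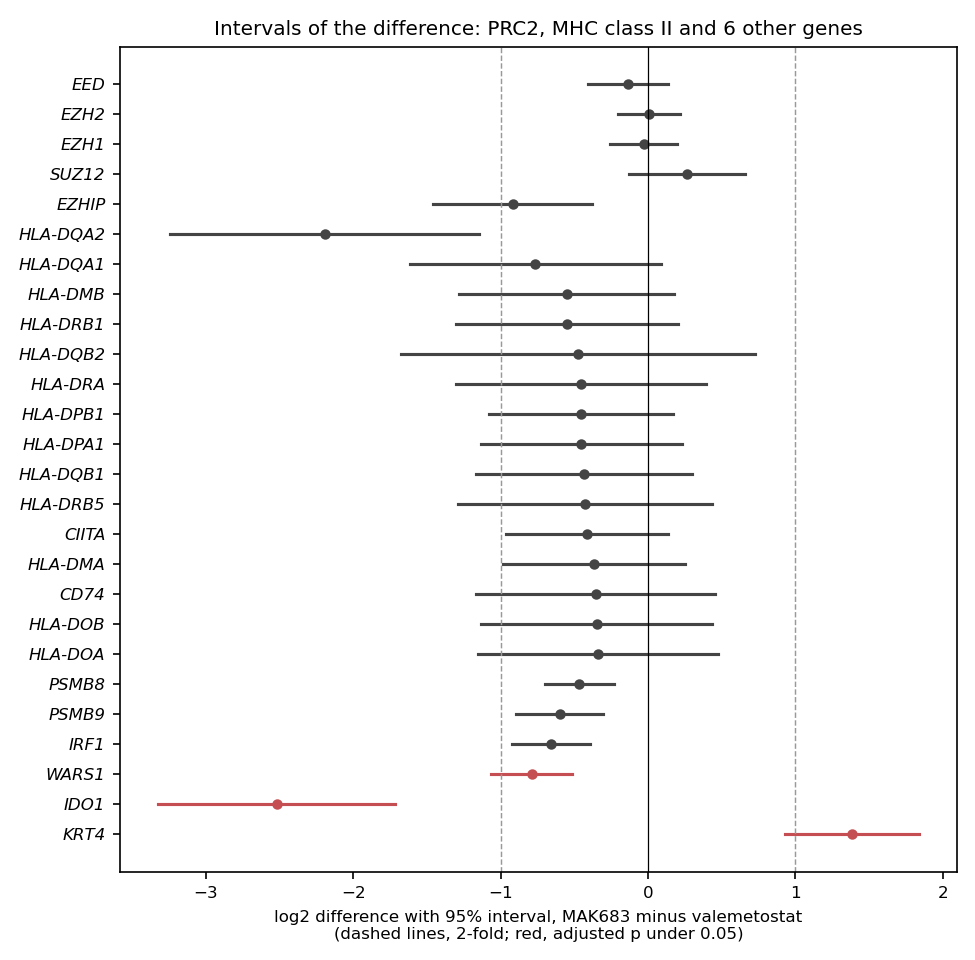
Log2 difference, MAK683 minus valemetostat, with its 95% interval for 5 PRC2 genes, 15 MHC class II genes and 6 others; dashed lines mark a 2-fold change and red marks an edgeR adjusted p under 0.05. EED, EZH2, EZH1 and SUZ12 lie within 2-fold, while most class II intervals cross both 0 and the lower 2-fold line.

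MHC class I presentation genes, which serve killer T cells, differed by little. All 22 members had an interval within 2-fold, 0 passed, and 20 of 22 had a lower mean with MAK683 (median log2 difference -0.23). An unadjusted p under 0.05 was reached by 8 members, all lower with MAK683 (3.32% of all genes were lower at that level), and 6 members were lower without overlap between the groups, as were 5.87% of all genes. HLA-B, with the highest CPM of the list, averaged 2531 ± 304 CPM with MAK683, against 3108 ± 526 CPM with valemetostat. Its log2 difference was -0.30 (interval -0.71 to 0.12). PSMB9, a subunit of the immunoproteasome named here after its value was seen, had 43.8, 50.1 and 36.3 CPM with MAK683 and 65.0, 57.0 and 75.5 CPM with valemetostat. Its log2 difference was -0.60 ± 0.14 (edgeR adjusted p 0.179), so it missed the threshold without overlap between the groups. In the per-library medians of this list the 3 MAK683 libraries stood at 0.23 to 0.38 and the 3 valemetostat libraries at 0.54 to 0.78 above vehicle on the log2 scale.

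Interferon-stimulated genes held 2 of the 4 genes that were lower with MAK683 than with valemetostat, IDO1 and WARS1. Of 49 members tested, 44 had a lower mean with MAK683, where 51.8% of all genes had a positive difference. An unadjusted p under 0.05 was reached by 10 in the lower direction (3.32% of all genes) and 0 in the higher (3.85%), and 43 members had an interval within 2-fold (median -0.19). Against vehicle, 11 rose with MAK683 (10.4% of all genes) and 26 with valemetostat (15%). The MAK683 count was 21 with no low-count filter, 18 without the resubmission-marked libraries of other groups and 3 by glmTreat. It was 6 without MAK683 library 1 or MAK683 library 2, 7 without vehicle library 1 and 5 without vehicle library 3. Over the 18 alternatives the valemetostat count ran from 9 to 34. The median stayed negative when any single library was left out, between -0.10 without valemetostat library 3 and -0.27 without valemetostat library 2. The per-library medians of the list overlapped, at 0.43, 0.37 and 0.31 with MAK683 and 0.57, 0.34 and 0.77 with valemetostat relative to vehicle (log2). IRF1, a transcription factor of the interferon response, had 81.4, 64.9 and 65.4 CPM with MAK683 and 109, 99.3 and 126 CPM with valemetostat. It missed the threshold (log2 difference -0.66 ± 0.13, edgeR adjusted p 0.0765).

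Cytokine and chemokine genes rose against vehicle in 25 of 37 with MAK683 and in 31 with valemetostat, with 0 and 1 lower. Of all genes, 10.4% and 15% were higher and 5.17% and 12.2% lower in these comparisons. Between the compounds 0 of 37 passed, while 29 had a lower mean with MAK683 and 19 of them reached an unadjusted p under 0.05 (3.32% of all genes), against 0 in the other direction (3.85%). The median log2 difference was -0.58, and it was -0.24 without valemetostat library 3. Per-library medians overlapped here too, at 1.95, 1.39 and 1.45 with MAK683 and 1.72, 1.47 and 2.83 with valemetostat relative to vehicle (log2). IL32, the cytokine with the highest CPM here, had 184, 210.1 and 144 CPM with MAK683 and 351, 263 and 343 CPM with valemetostat, without overlap (log2 difference -0.83 ± 0.23, edgeR adjusted p 0.243). TNFSF10, which encodes the death ligand TRAIL, differed by 0.27 with an interval from -0.33 to 0.86.

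CXCL10 and CXCL9, attractants of activated T cells named here after their values were seen, came closest to the threshold in that list. CXCL10 had 27.3, 16.8 and 16.6 CPM with MAK683, 43.3, 35.4 and 120.2 CPM with valemetostat, and 0.770, 0.923 and 0.745 CPM with vehicle. The log2 difference between the compounds was -1.71 ± 0.35 (edgeR adjusted p 0.107). CXCL9 had 0.618, 0.489 and 0.333 CPM with MAK683 and 1.77, 1.23 and 4.58 CPM with valemetostat, and no read in any vehicle library (log2 difference -2.38 ± 0.52, adjusted p 0.13). Lymphocyte markers were also lower in sum, at very low levels. The 13 genes include CD3D, CD3E and PTPRC, the last of which is not limited to lymphocytes among leukocytes. They summed to 5.16 to 6.31 CPM with MAK683, 7.94 to 8.44 CPM with valemetostat and 2.84 to 3.58 CPM with vehicle. None of the 13 was at 0 in all 6 libraries, 7 were tested, 0 passed and all 7 had a lower mean with MAK683 (median -0.67). That median ran from -1.06 without MAK683 library 2 to -0.40 with the replicate block; it was -1.02 with no filter, -0.41 with at least 1 CPM in 3 libraries or on the 6 libraries alone, and -0.45 without valemetostat library 3. Their part in these results was not tested, and in bulk RNA fewer cells of a type and less RNA per cell cannot be told apart.

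**Figure D4:**
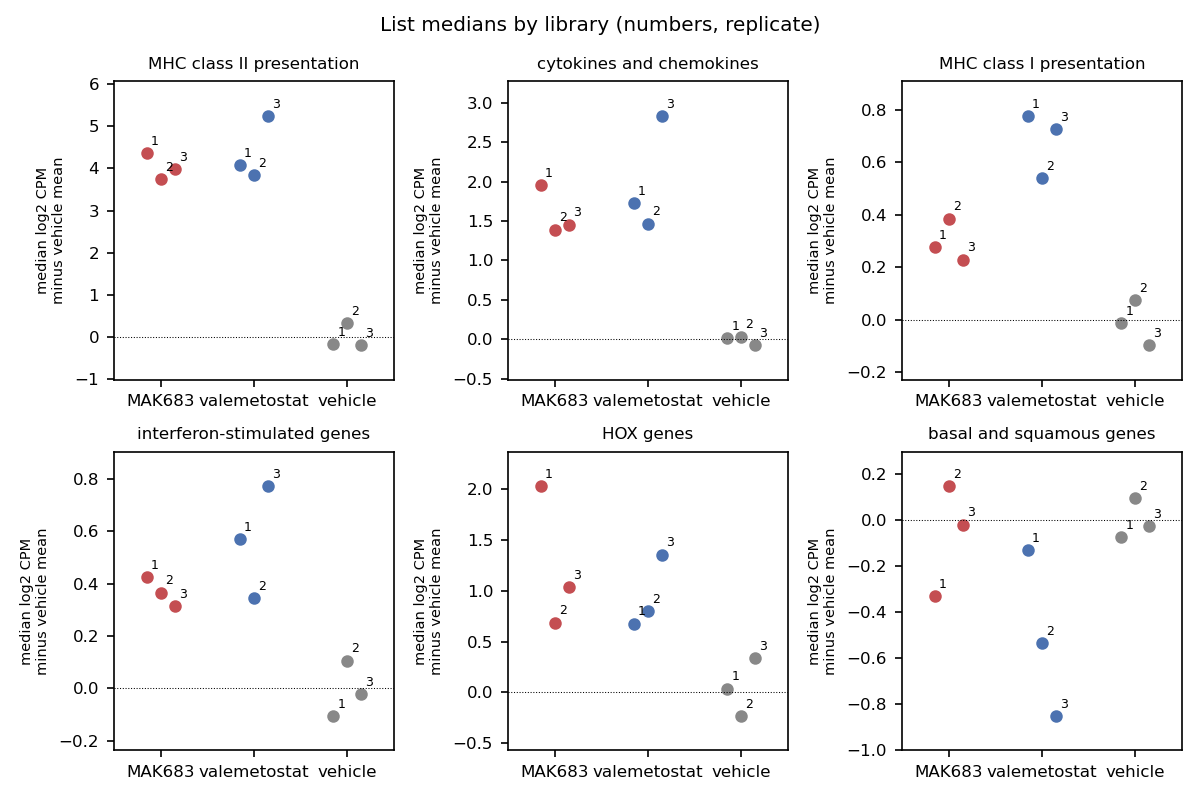
Median over each list's tested genes of log2 CPM minus the vehicle mean, 1 point per library and numbered by replicate, with MAK683 left, valemetostat in the middle and vehicle right. MAK683 and valemetostat points separate for MHC class I presentation; for class II, cytokines and interferon-stimulated genes valemetostat library 3 stands highest, and for HOX genes MAK683 library 1 does.

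Basal and squamous genes, the program of stratified epithelium, more often had a higher mean with MAK683, and 1 of them passed. Of 63 members tested 1 passed, KRT4, while 55 had a higher mean with MAK683 and 23 reached an unadjusted p under 0.05 in that direction and 0 in the other, where 3.85% of all genes were higher at that level. In 20 the MAK683 libraries all lay above the valemetostat libraries, as in 6% of all genes, and in 0 below. The median log2 difference was 0.53 and stayed between 0.34 and 0.64 in every alternative run. The per-library medians of the list overlapped, at -0.33, 0.14 and -0.02 in the MAK683 libraries and -0.13, -0.54 and -0.85 in the valemetostat libraries relative to vehicle (log2), so that MAK683 library 1 lay below valemetostat library 1. Against vehicle, 12 of these genes fell with MAK683 and 23 with valemetostat (5.17% and 12.2% of all genes), with medians of -0.10 and -0.42. The MAK683 count was 6 without MAK683 library 1, MAK683 library 2 or vehicle library 3. Over the 18 alternatives it ran from 4 to 16, and the valemetostat count from 14 to 31.

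KRT1 and KRT10, the keratin pair of cornifying epidermis, and FLG, which encodes the filament-binding protein filaggrin, were named after their values were seen. KRT1 had 707, 1262 and 1029 CPM with MAK683, 317, 626 and 189 CPM with valemetostat, and 2116, 2686 and 2908 CPM with vehicle, with no overlap between the groups (log2 difference between the compounds 1.40 ± 0.33, edgeR adjusted p 0.177). KRT10 differed by 0.93 ± 0.23 and FLG by 1.09 ± 0.26, also without overlap and short of the threshold. KRT17 and KRT14, keratins of the basal layer and the members with the highest CPM, overlapped between the compounds and averaged 5525 ± 1108 and 4459 ± 1212 CPM with MAK683, against 5071 ± 1399 and 4357 ± 1394 CPM with valemetostat. Their log2 differences were 0.12 (interval -0.29 to 0.54) and 0.03 (interval -0.39 to 0.45). The markers of skin keratinocytes and hair, 4 of which also stand in the basal and squamous list, summed to 1260 to 2134 CPM with MAK683, 541 to 1150 CPM with valemetostat and 3699 to 5034 CPM with vehicle. Human tumour cells and other keratinocytes cannot be told apart from these sums.

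HOX genes, developmental regulators that Polycomb is known to silence, did not separate the compounds. Of 26 tested, 0 passed, 0 reached an unadjusted p under 0.05, 21 had a higher mean with MAK683 and the median was 0.41. That median was -0.21 without MAK683 library 1, and only 3 of the 26 intervals lay within 2-fold. HOXC8 had 5.26, 1.12 and 2.66 CPM with MAK683 and 1.26, 1.93 and 2.15 CPM with valemetostat (interval -0.58 to 2.08), a wide interval at a low level. Developmental transcription factors beyond HOX (80 tested, median 0.03) and developmental signalling genes (64 tested, median 0.08) had 0 members past the threshold. An unadjusted p under 0.05 was reached by 4 and 9 (7.17% of all genes), with 3 and 5 higher and 1 and 4 lower with MAK683. Intervals within 2-fold numbered 38 and 35 (68.1% of all genes).

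Cancer-testis genes, whose expression is usually limited to germ cells, had 0 of 44 past the threshold, 9 lower and 1 higher at an unadjusted p under 0.05 (3.32% and 3.85% of all genes), 34 lower means with MAK683 and a median of -0.23. PAGE5 averaged 75.9 ± 13.8 CPM with MAK683 and 94.4 ± 13.4 CPM with valemetostat (interval -0.65 to 0.02). PAGE2 averaged 74.9 ± 16.3 CPM with MAK683 and 91.3 ± 12.9 CPM with valemetostat (interval -0.69 to 0.12). Neuronal and synaptic genes had 0 of 38 past the threshold, 7 lower and 0 higher at an unadjusted p under 0.05 (again beside 3.32% and 3.85%) and a median of -0.25, and 14 intervals lay within 2-fold. NRXN2 and SYT7, a presynaptic adhesion gene and a calcium sensor of exocytosis, differed by 0.28 (interval -0.05 to 0.62) and 0.08 (interval -0.18 to 0.34).

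Proliferation genes stood close together under both compounds: all 54 had an interval within 2-fold, 0 passed by adjusted or unadjusted p, and the median was -0.03. MKI67, the proliferation marker, had 340, 298 and 395 CPM with MAK683 and 296, 332 and 349 CPM with valemetostat (interval -0.21 to 0.38), and CDC20, an activator of the anaphase-promoting complex, differed by -0.21 (interval -0.45 to 0.04). Cholesterol and fatty acid synthesis genes had 0 of 34 past the threshold and 9 higher with MAK683 at an unadjusted p under 0.05 (3.85% of all genes), against 0 lower (3.32%) (median 0.18). SCD, the stearoyl-CoA desaturase, differed by 0.32 (interval -0.05 to 0.70). For hypoxia and glycolysis genes 0 of 36 passed, 1 was higher at an unadjusted p under 0.05 (3.85% of all genes) and the median was 0.19. LDHA differed by 0.10 (interval -0.20 to 0.40) and ALDOA by 0.09 (interval -0.35 to 0.52).

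**Figure D5:**
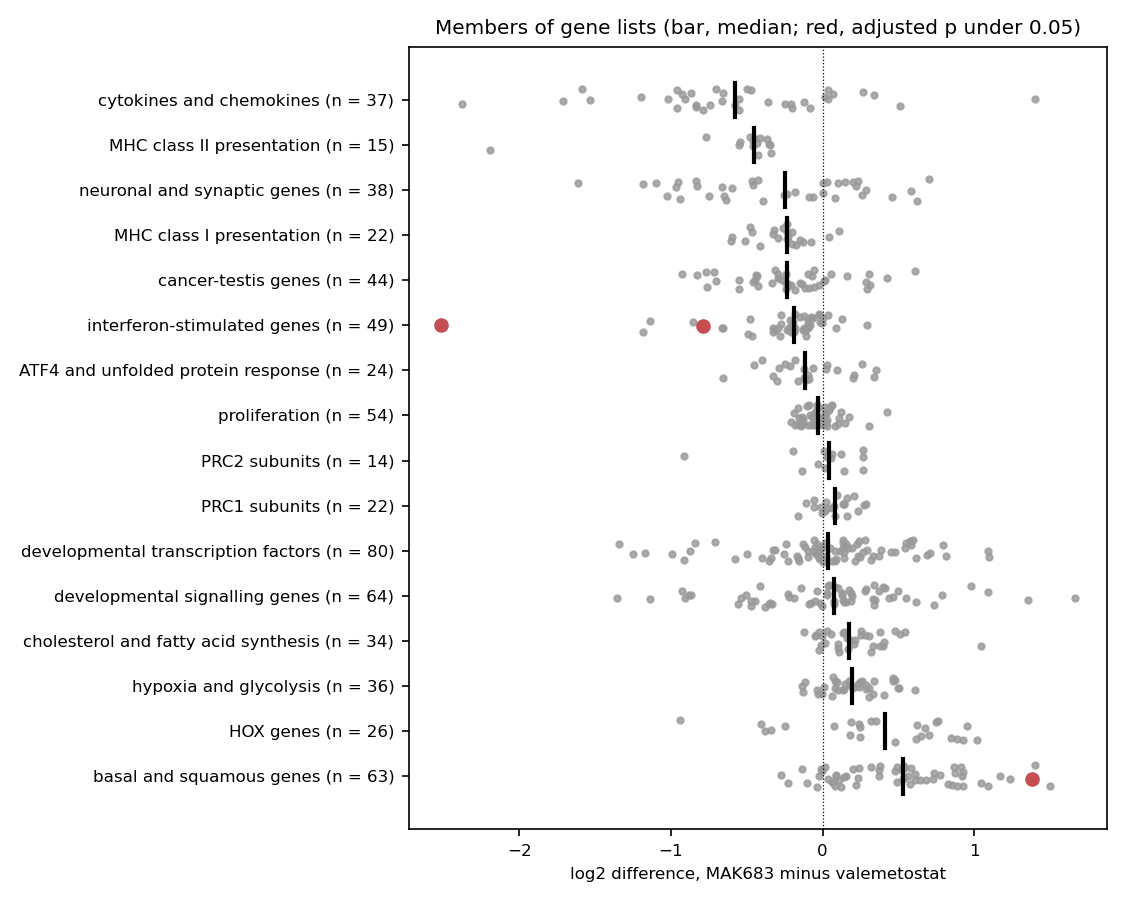
Log2 difference, MAK683 minus valemetostat, of each tested member of 16 gene lists, with the list median as a black bar and the number of tested members in brackets; red points passed an edgeR adjusted p of 0.05. Medians run from -0.58 for cytokines and chemokines to 0.53 for basal and squamous genes, beside 0.01 for all genes tested.

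Just outside the threshold, 17 genes had an edgeR adjusted p from 0.05 to under 0.1, which brings the total under 0.1 to 23 (0.105% of genes). They are named after their values were seen and are given as a description. Of these, 7 were higher with MAK683: SERPINB13, an inhibitor of cysteine proteases in squamous epithelium (54.7, 42.7 and 61.6 CPM with MAK683 and 23.9, 33.2 and 29.1 CPM with valemetostat), HAL, the histidine-degrading enzyme of skin (12.6 ± 4.13 CPM with MAK683 and 4.20 ± 0.655 CPM with valemetostat), CALML5, GPLD1, MYLK4, ASPG and RDH10. The other 10 were lower with MAK683: AIM2, a sensor of cytosolic DNA (19.1 ± 1.61 CPM with MAK683 and 35.6 ± 5.23 CPM with valemetostat), BCL2A1, an anti-apoptotic relative of BCL2 (1.47 ± 0.310 CPM with MAK683 and 4.24 ± 1.58 CPM with valemetostat), IRF1, DPPA2, FDCSP, CA3, MAOB, MMP12, LINC00668 and SORD2P. In all 17 the compounds did not overlap, as in 11.9% of all genes, and genes picked by a small p tend to have that trait. In 16 the MAK683 mean lay between the vehicle and valemetostat means, GPLD1 being the exception. That order was not counted over all genes.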

How the data were processed

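Each library has a table of raw counts per Ensembl gene (57500 genes), as deposited by the authors. STAR 2.7.3a and RSEM 1.3.1, with hg38 as the build, stand in the submitters' processing notes. Not given in the sources used here are which program counted, whether strand was used, the gene annotation, whether mouse reads were removed and how paralogs' shared reads were treated. Per the labels' protocols, RNA was extracted with Trizol, and libraries made with a TruSeq kit that the labels call both v2 and strand-specific. Symbols were paired for 56410 genes, and 54784 had the same start and end in GENCODE 29.

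edgeR 4.0.16 in R 4.3.3 was used on the counts. filterByExpr, run by group, left 21958 genes (99.6% to 99.9% of counts), which were scaled by TMM (factors 0.946 to 1.08). All 21 libraries, grouped by treatment label into 7 groups of 3, entered 1 quasi-likelihood fit with 1 coefficient for each group and robust estimates of spread (14 residual degrees of freedom, biological coefficient of variation 0.163). Tests are two-sided with Benjamini-Hochberg adjustment over all genes tested. The SE is the log2 difference divided by the square root of F, and log2 CPM values use a prior count of 2. CPM use the TMM-scaled library size and are not divided by gene length. For the 15 pairs among the 6 libraries the mean chi-square per gene was 6.66 to 31.8, so no pair agreed within sampling noise. The pipeline was tested on simulated data.

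Named genes are EED, EZH2, EZH1 and SUZ12; genes past the threshold with at least 1 CPM and no overlap (all 6); up to 3 members of each list past the threshold; and, for lists with none and for class II, cytokine, HOX and cancer-testis genes, the 2 members with the highest mean CPM. Some genes that this rule names are not reported here. The members and lists were chosen with earlier results of these data known. Other genes given with values fall outside the naming rule and count as chosen after their values were seen. EZHIP, CIITA and HLA-DQA2 are among them. Alternatives were other filters and scalings, DESeq2 1.42.0, limma-voom (limma 3.58.1), a test against a 1.5-fold change, the 6 libraries alone, a replicate block, a muscle-marker covariate and the omission of libraries; leaving out vehicle libraries and all alternatives for the comparisons with vehicle were chosen after the data were seen.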

Additional observations from a re-analysis of the deposited data

How the results depend on the processing

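The counts of genes that passed (2 higher and 4 lower with MAK683 than with valemetostat) moved with most choices. They were 204 and 155 with no low-count filter, where all 359 were among the genes the filter kept; 1 and 4 with RLE scaling; 3 and 9 with upper-quartile scaling; 27 and 40 by DESeq2, among them all 23 genes with an edgeR adjusted p under 0.1; and 0 and 1 by glmTreat against a 1.5-fold change. They were 0 and 0 on the 6 libraries alone, 12 and 16 without the 3 resubmission-marked libraries of other groups, and 16 and 12 with a skeletal muscle marker covariate. The cause was not tested. Leaving out 1 library at a time gave 0 to 5 higher and 0 to 9 lower. With the replicate number as a replicate block in the fit of the 6 libraries, 0 higher and 0 lower passed by edgeR, with 1199 genes at an unadjusted p under 0.05. Same-numbered libraries deviated together with correlations of -0.26, 0.02 and 0.08, so the numbers did not pair them. No alternative reversed a gene past the threshold: of 120 values of the 6 genes 73 stayed past it and 47 did not, UBD passing in 16 of 20 alternatives and RAPGEFL1 in 10. The number of genes with an interval within 2-fold ran from 13657 to 15526. Against vehicle, the 6 genes kept their direction in all 18 alternatives with either compound. Of 637 list medians 614 moved by less than the spread between libraries; the class II median ran from -0.70 to 0.01 and the HOX median from -0.21 to 0.64. At this depth, genes under 1 CPM had intervals too wide to place within 2-fold in most cases.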

Other observations

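Outside the comparisons above, some genes of stress, muscle and adipocyte lists are given here as values, chosen after they were seen. EGR3, an early-response transcription factor, had 25.5, 21.1 and 31.9 CPM with MAK683, against 11.3, 9.63 and 10.8 CPM with valemetostat and 25.4, 27.6 and 34.1 CPM with vehicle. Its MAK683 libraries overlapped the vehicle range and lay above every valemetostat library, and it did not pass (log2 difference 1.31 ± 0.30, edgeR adjusted p 0.162). Among 33 immediate early and heat shock genes 0 passed, 7 were higher with MAK683 and 1 lower at an unadjusted p under 0.05 (3.85% and 3.32% of all genes). HSPA8, a constitutive heat shock chaperone, was the 1 lower (1532 ± 125 CPM with MAK683 and 1901 ± 207 CPM with valemetostat, SD, n = 3 each). ATF4 and unfolded protein response genes (24 tested), p53 targets (22) and NRF2 targets (24) had 0 members past the threshold by edgeR, with medians of -0.11, 0.03 and 0.05. An unadjusted p under 0.05 was reached by 5, 0 and 2 (7.17% of all genes). The 5 were all lower with MAK683 (3.32% of all genes).

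Skeletal muscle markers summed to 537 to 600.5 CPM with MAK683, 453 to 468 CPM with valemetostat and 624 to 691 CPM with vehicle. TNNT3 (287 CPM with MAK683 and 202 CPM with valemetostat) and TNNI2 (156 CPM with MAK683 and 137 CPM with valemetostat), both fast-muscle troponin genes, made up most of these sums. The median muscle marker ran from -0.08 to 4.02 log2 CPM among the MAK683 libraries and from 1.42 to 4.04 among the valemetostat libraries. Their median log2 difference between the compounds was 0.16, and it ran from -0.77 without MAK683 library 3 to 0.51 without MAK683 library 2, with -0.40 by limma-voom, -0.16 with the replicate block and -0.18 without valemetostat library 1, so its direction was not settled. Of these markers 16 of 18 were tested, with 0 past the threshold and 1 at an unadjusted p under 0.05 (7.17% of all genes). FABP4, a fatty acid binding protein of adipocytes and urothelium, had 12.8, 16.1 and 14.2 CPM with MAK683, 27.6, 36.3 and 22.7 CPM with valemetostat and 2.22, 2.10 and 1.91 CPM with vehicle, and it did not pass between the compounds (log2 difference -1.004 ± 0.281, edgeR adjusted p 0.268). The other 3 adipocyte markers tested, LPL, CFD and PLIN4, had higher means with MAK683, with log2 differences of 0.23, 0.02 and 0.16, and the list median was 0.09. ADIPOQ, a defining adipocyte gene, was at 0 in all 6 libraries.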
